A study of Danio rerio with 4 samples.

Results

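JUNB, FOS, FOSL1, FOSL2 and ATF3 are 5 genes of the AP-1 and ATF class of transcription factors, taken by their Ensembl identifiers out of 32379 gene rows. All 5 are described here in whole zebrafish embryos of the AB strain collected at 48 hours post fertilization. One group of embryos carried 3 ng of a morpholino against srsf5a, a gene for a serine/arginine-rich splicing factor, and the other carried 3 ng of a control morpholino. Both kinds of oligomer went in at the 1-cell stage, and embryos were sorted with the tracer rhodamine dextran. A morpholino is an antisense oligomer that binds RNA and lowers gene function for a limited time, without changing the genome. The series title asks how far such oligomers affect RNAs they were not designed for. Each group had 2 RNA libraries, and 80 embryos were pooled per condition. The labels do not tell if every library had its own pool of embryos, so the spread between them may be technical. The 5 genes were chosen by their measured fold changes in this very comparison. Their levels and fold changes are therefore given as a description, without a test.

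AP-1 is a dimer of basic leucine zipper proteins. Jun proteins pair with each other or with Fos proteins, whereas Fos proteins need a Jun partner, and the dimer binds a short DNA element in the promoters and enhancers of its target genes. Many AP-1 genes are immediate-early genes: transcription starts within minutes of growth factors, wounding or stress, through MAP kinases and factors that are already present. In zebrafish, AP-1 genes are known for their induction at wounds and in regenerating fins.

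Reads assigned to genes numbered 22739821 and 23950082 in srsf5a-morpholino replicates 1 and 2, and 15139525 and 36240893 in control replicates 1 and 2. Levels are given as CPM, read counts scaled to the library's total so that libraries of different depth compare, with totals scaled by the trimmed mean of M values. The targeted gene was read first. srsf5a stood at 335 and 368 CPM in srsf5a-morpholino libraries and at 335 and 286 CPM in control libraries (log2 fold change 0.18 ± 0.11 SE, adjusted p = 0.424 in edgeR). If the oligomer acts on splicing or translation, the total count of its target need not fall, so this value does not check the labels. Transcripts that define skin (krt4), cartilage (COL2A1), neurons (ELAVL3), embryonic blood (hbae3) and pigment cells (pmela) were all abundant, as the whole-embryo label requires. The liver marker fabp10a averaged 0.713 CPM with the srsf5a morpholino and 0.821 CPM in controls, close to absent. In RNA from whole embryos, more cells of a type and more RNA per cell cannot be told apart.

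All 5 genes stood higher in embryos given the srsf5a morpholino, by 3.32-fold for ATF3, 3.98-fold for FOSL2, 4.07-fold for FOS, 6.36-fold for JUNB and 13.1-fold for FOSL1. In each gene the lower srsf5a-morpholino library lay above the higher control library. Such a separation upward was also found in 26.1% of all 19917 genes tested. The quasi-likelihood test of edgeR, with calls at a Benjamini-Hochberg adjusted p under 0.05, called 1.98% of tested genes, 1.22% as higher and 0.768% as lower. All 5 genes are among those called higher, which follows from how they were chosen and is not read as a result.

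JUNB (ENSDARG00000074378) encodes a Jun protein, a partner that can bind DNA with Fos proteins or as a homodimer, and a weaker activator than JUN in mammals. It had 24.3 and 19.7 CPM in srsf5a-morpholino libraries, against 3.81 and 3.22 CPM in control libraries. These values rest on 561 and 464 reads with the srsf5a morpholino and on 57 and 118 reads in controls. The libraries of a group differed by 1.23-fold with the srsf5a morpholino and by 1.18-fold in controls. The log2 fold change was 2.67 ± 0.17 (SE). A second identifier named JUNB in the name table has no row in the deposited counts. Which zebrafish paralog ENSDARG00000074378 stands for is not stated in the name table.

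FOS (ENSDARG00000031683) encodes the founding Fos protein, an activator whose RNA is short-lived. It had 19.6 and 25.8 CPM with the srsf5a morpholino, against 3.54 and 7.09 CPM in controls. In both groups replicate 2 was the higher library, and the controls lay 2.003-fold apart, from 53 and 260 reads. Only 3.07% of tested genes had control libraries at least that far apart. The exact Poisson 95% intervals of the control libraries, which cover counting error only, ran from 2.65 to 4.63 CPM and from 6.25 to 8.01 CPM and did not overlap. The log2 fold change was 2.02 ± 0.29 (SE). It was 2.68 without control replicate 2, so the size of the FOS difference depends on that library.

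FOSL1 (ENSDARG00000015355), also known as Fra-1, encodes a Fos-related protein without the strong activation domain of FOS. It is known for late and lasting induction in migrating epithelial cells in mammals. It had 18.3 and 11.9 CPM with the srsf5a morpholino, against 1.74 and 0.818 CPM in controls. The control values rest on only 26 and 30 reads, beside 423 and 281 reads with the srsf5a morpholino. The control libraries were 2.12-fold apart, and their counting intervals, 1.13 to 2.54 CPM and 0.552 to 1.17 CPM, just overlapped. FOSL1 therefore had both the largest fold change of the 5 genes, 3.71 ± 0.36 (SE) on the log2 scale, and the least certain one. It was 3.12 without control replicate 2 and 4.20 without control replicate 1.

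FOSL2 (ENSDARG00000040623), or Fra-2, encodes the other Fos-related protein and in mammals acts in bone and cartilage cells. It had 77.7 and 64.3 CPM with the srsf5a morpholino, against 19.4 and 16.5 CPM in controls. It was the most deeply counted of the 5, with 1791 and 1515 reads in srsf5a-morpholino libraries and 290 and 607 in controls. Its libraries differed by 1.21-fold with the srsf5a morpholino and by 1.17-fold in controls, and its log2 fold change was 1.99 ± 0.14 (SE).

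ATF3 (ENSDARG00000007823) encodes a stress-induced protein that pairs with Jun proteins or with itself. As a homodimer it is known mainly as a repressor in mammals. It had 31.4 and 25.7 CPM with the srsf5a morpholino, against 8.62 and 8.59 CPM in controls. The control libraries were almost equal, 1.00-fold apart. The log2 fold change was 1.73 ± 0.14 (SE).

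**Figure D1:**
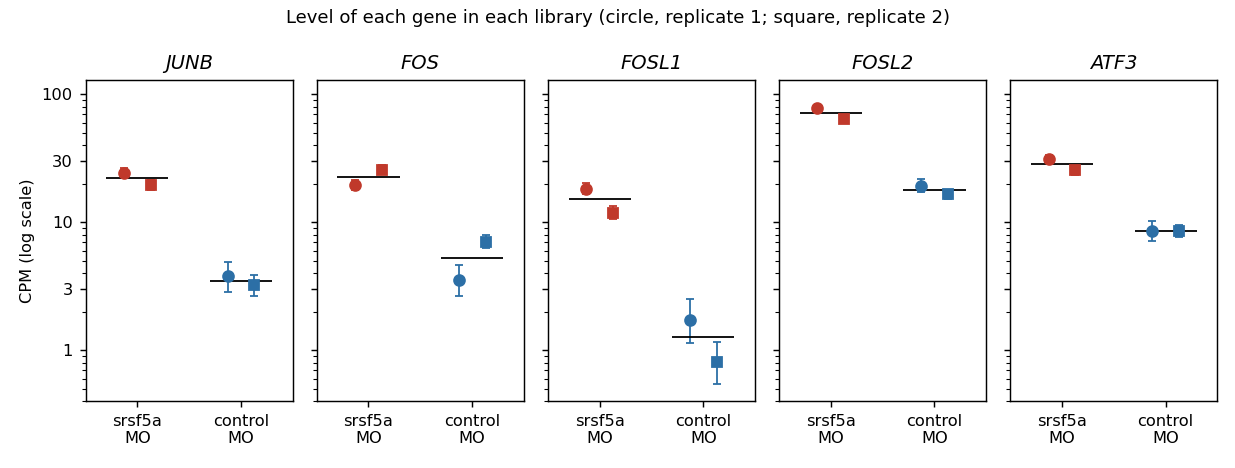
Level of JUNB, FOS, FOSL1, FOSL2 and ATF3 in CPM on a log axis, for srsf5a-morpholino libraries (red, left) and control libraries (blue, right). Circles are replicate 1, squares replicate 2, bars exact Poisson 95% intervals of the read counts and black lines group means; red and blue points are separate in every panel, and the blue points of FOS and FOSL1 lie furthest apart.

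The genes varied unequally between libraries of the same group. The coefficient of variation that edgeR calls biological was 10.6% for FOSL2, 11.4% for ATF3 and 12.7% for JUNB. These lay near the median of 12.6% over all tested genes. edgeR draws each gene's value towards those of other genes, so such nearness is partly built in, and the spread may be technical. It was 20.4% for FOS and 21.5% for FOSL1. With the srsf5a morpholino, replicate 1 was the higher library for JUNB, FOSL1, FOSL2 and ATF3, whereas FOS was higher in replicate 2. The controls showed the same order, with FOS higher in replicate 2 and the other 4 genes higher in replicate 1. For those 4 genes the counting intervals of the control libraries overlapped. Overlap of intervals does not decide if such a difference exceeds counting error, and the order of the controls was not tested.

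Leaving out each library in turn kept every one of the 5 fold changes above 0. That outcome was fixed beforehand, because both srsf5a-morpholino libraries lay above both controls in each gene. The log2 value ranged from 2.51 to 2.81 for JUNB, from 1.85 to 2.12 for FOSL2, from 1.58 to 1.86 for ATF3, from 1.67 to 2.68 for FOS and from 3.12 to 4.20 for FOSL1. FOS and FOSL1 thus had the widest ranges. FOSL1 ranked highest of the 5 and JUNB came after it with all 4 libraries, but without control replicate 2 FOS (2.68) stood above JUNB (2.53). The differences in fold change between the genes were not tested.

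**Figure D2:**
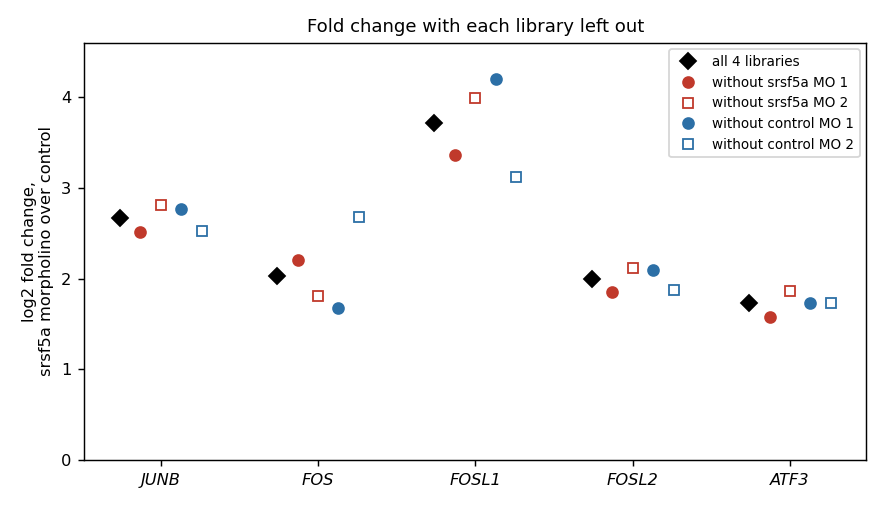
Log2 fold change (srsf5a morpholino over control) of each of the 5 genes with all 4 libraries (black diamonds) and with 1 library left out (red for a srsf5a-morpholino library, blue for a control; filled for replicate 1, open squares for replicate 2). Points cluster for JUNB, FOSL2 and ATF3 and spread for FOS (1.67 to 2.68) and FOSL1 (3.12 to 4.20).

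Among all 19917 genes tested, FOSL1 ranked at position 11 by fold change, JUNB at 31, FOS at 79, FOSL2 at 84 and ATF3 at 117. Among 13768 genes with at least 5 CPM in the higher group, the positions were 5, 13, 26, 29 and 41 in that order. FOSL1 and JUNB averaged 1.28 and 3.51 CPM in controls, so they pass that filter only through the srsf5a-morpholino group. These ranks follow from how the 5 genes were chosen and are not read as a result. In the authors' deposited table the log2 fold changes were smaller, at 2.14 for FOSL1, 2.05 for JUNB, 1.74 for FOSL2, 1.43 for ATF3 and 1.42 for FOS. Recomputed with DESeq2 from the counts, FOSL1 had 3.67 and JUNB 2.66 on the log2 scale. If and how the authors' values were shrunken towards 0 is not stated.

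The other Fos, Jun and JDP2 genes that were tested had smaller fold changes. The second identifier named JUNB has no row in the deposited counts, and 6 of the 8 other identifiers under such names had enough reads to be tested. None passed the adjusted threshold in edgeR, and DESeq2 called 1 of them, JUN. An unadjusted p under 0.05 was found for 3 of the 6, all higher. Over all tested genes, 20.6% had an unadjusted p under 0.05 in edgeR, 10.5% as higher and 10.1% as lower, and DESeq2 called 2.86% higher and 2.67% lower. The median log2 fold change of the 6 was 0.52, beside 0.000266 over all tested genes. In 3 of the 6, both srsf5a-morpholino libraries lay above both controls, beside 26.1% of all tested genes.

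JUN, the strongest activator of the Jun proteins, had 98.1 and 92.9 CPM with the srsf5a morpholino, against 71.5 and 73.4 CPM in controls. The groups did not overlap, and the log2 fold change was 0.40 ± 0.09 (SE, adjusted p = 0.0761 in edgeR). It was called by DESeq2 (adjusted p = 0.0400) and without srsf5a-morpholino replicate 2 (0.43, adjusted p = 0.0326 in edgeR). JUND, a Jun protein that is made more constantly than the others, had 2.47 and 2.89 CPM with the srsf5a morpholino and 2.40 and 2.67 CPM in controls. Its log2 fold change was 0.07 ± 0.24 (SE) and became -0.05 without srsf5a-morpholino replicate 2.

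FOSB, a close relative of FOS, had 2.17 and 2.38 CPM with the srsf5a morpholino, against 1.00 and 1.45 CPM in controls (log2 fold change 0.85 ± 0.30 SE, adjusted p = 0.181 in edgeR). fosaa, the second zebrafish gene of the fos type, had 4.51 and 5.39 CPM with the srsf5a morpholino and 5.81 and 4.80 CPM in controls. Its log2 fold change of -0.09 ± 0.20 (SE) turned to 0.04 when replicate 1 of either group was left out. The fos paralogs thus had different values in these libraries, 2.02 for FOS and -0.09 for fosaa, a difference that was not tested. fosl1b had no read in any library, which allows up to 0.132 and 0.125 CPM with the srsf5a morpholino and up to 0.198 and 0.0828 CPM in controls. fosl2l was not tested, with 0.130 and 0.170 CPM with the srsf5a morpholino and 0.200 and 0.218 CPM in controls.

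JDP2 encodes a Jun partner that is known in mammals as a repressor at AP-1 sites, and 2 identifiers bear its name. ENSDARG00000020133 had 2.43 and 2.97 CPM with the srsf5a morpholino and 1.67 and 1.66 CPM in controls (log2 fold change 0.70 ± 0.26 SE, adjusted p = 0.200 in edgeR). ENSDARG00000040137 had 1.34 and 1.15 CPM with the srsf5a morpholino and 1.20 and 0.518 CPM in controls (0.65 ± 0.47 SE, adjusted p = 0.488 in edgeR). Neither passed the threshold, and the controls of the second overlapped the srsf5a-morpholino libraries.

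**Figure D3:**
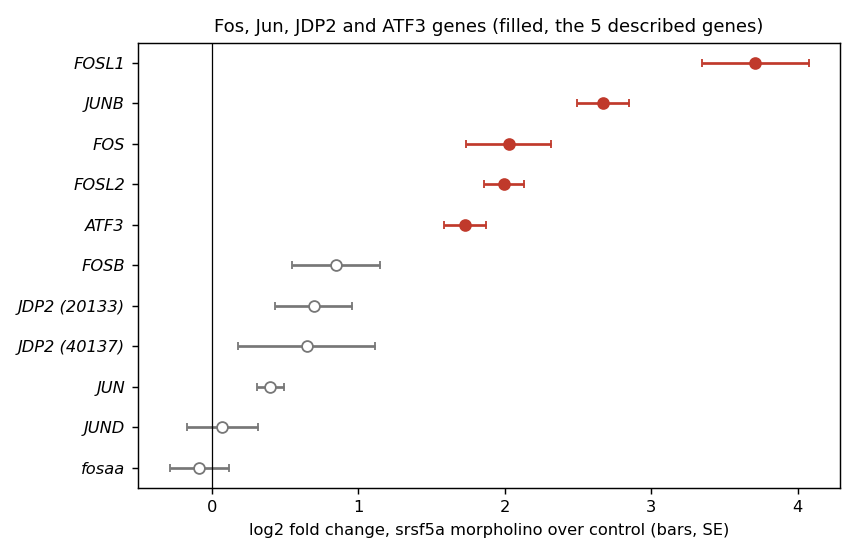
Log2 fold change (srsf5a morpholino over control, bars SE) of the tested Fos, Jun, JDP2 and ATF3 genes; filled red points are the 5 described genes and open grey points their relatives, with the last digits of the identifier for the JDP2 genes. The 5 genes lie between 1.73 and 3.71, and their relatives between -0.09 and 0.85. The 5 were chosen by these fold changes, so the gap is not read as a result.

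Genes next to those of the 5 on the chromosome were read from the order in a RefSeq table of assembly GRCz12tu, a later build than the authors' Zv9. Neighbours were matched by symbol, with FOS taken as fosab and FOSL1 as fosl1a through their synonyms there, and JUNB was left out. None of 6 tested neighbours was called in edgeR. Beside fosl2, babam2 had a log2 fold change of -0.11 ± 0.11 (SE) and mocs1 one of -0.37 ± 0.30 (SE). Beside fosl1a, ccdc85b had -0.10 ± 0.19 (SE) and yif1a 0.22 ± 0.11 (SE). Beside atf3, the peroxisome gene pex3 had 0.32 ± 0.14 (SE), and beside fosab an unnamed gene, si:ch211-153j24.3, had 0.43 ± 0.31 (SE). The adjusted p of these 6 genes lay between 0.265 and 0.805. The AP-1-related gene BATF, on the other side of fosab, had no read in any library. BATF3, on the other side of atf3, had 0.607 and 0.255 CPM with the srsf5a morpholino and 0.134 and 0.164 CPM in controls, too few reads to be tested.

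Other basic leucine zipper genes, including dimer partners of Jun, Fos and ATF3, had calls either way. Of the 40 with enough reads, which include the JDP2 genes above, 4 were called higher and 1 lower in edgeR. Over all tested genes, edgeR called 1.22% higher and 0.768% lower. At an unadjusted p under 0.05 in edgeR, 14 were higher and 5 lower, beside 10.5% and 10.1% of all. The median log2 fold change was 0.18. crema, a gene of the CREM type whose short forms repress genes that respond to cyclic AMP, had 63.0 and 58.7 CPM with the srsf5a morpholino, against 20.3 and 25.7 CPM in controls. It rose by 1.39 ± 0.13 (SE, adjusted p = 0.0149 in edgeR), the largest change among these relatives. CEBPD, an acute phase factor, had 41.8 and 45.5 CPM with the srsf5a morpholino, against 22.6 and 27.3 CPM in controls (0.80 ± 0.13 SE, adjusted p = 0.0356 in edgeR).

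atf4b, an effector of the integrated stress response, had 466 and 440 CPM with the srsf5a morpholino, against 307 and 298 CPM in controls (0.59 ± 0.09 SE, adjusted p = 0.0356 in edgeR). CEBPB, named after its values were seen, changed by 0.83 ± 0.15 (SE, adjusted p = 0.0425 in edgeR). nfil3-5, of the NFIL3 repressor type, fell to 107 and 114 CPM with the srsf5a morpholino, against 165 and 171 CPM in controls (-0.61 ± 0.09 SE, adjusted p = 0.0316 in edgeR). The call of crema held with any library left out. Those of CEBPD (0.95), atf4b (0.56), CEBPB (0.68) and nfil3-5 (-0.58) ended without control replicate 2, and those of CEBPD (0.67), atf4b (0.60) and nfil3-5 (-0.64) also without control replicate 1.

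Immediate-early genes of other families did not share a common direction. Of 53 tested, 3 were called higher and 2 lower in edgeR, beside 1.22% and 0.768% of all tested genes. At an unadjusted p under 0.05 in edgeR, 16 were higher and 9 lower, beside 10.5% and 10.1% of all. Both srsf5a-morpholino libraries lay above both controls in 28 and below both in 14, beside 26.1% and 26.3% of all. In the list 32 lay above 0 and 21 below, and the median log2 fold change was 0.16. The growth factor gene hbegfa, whose product activates the EGF receptor, had 25.2 and 21.7 CPM with the srsf5a morpholino, against 11.4 and 10.7 CPM in controls (1.09 ± 0.13 SE, adjusted p = 0.0189 in edgeR). egr1, a zinc finger gene induced along with FOS in many cells, had 30.8 and 26.7 CPM with the srsf5a morpholino, against 15.6 and 18.1 CPM in controls (0.77 ± 0.13 SE, adjusted p = 0.0419 in edgeR). The kinase gene sgk1 changed by 0.58 ± 0.10 (SE, adjusted p = 0.0395 in edgeR).

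The immediate-early genes called lower in edgeR were a KLF11 gene (ENSDARG00000030844) and a NR4A2 gene (ENSDARG00000017007). KLF11, a zinc finger repressor, had 31.1 and 31.8 CPM with the srsf5a morpholino, against 56.9 and 53.7 CPM in controls (-0.81 ± 0.10 SE, adjusted p = 0.0189 in edgeR). NR4A2, an orphan nuclear receptor also used in dopaminergic neurons, had 21.1 and 17.5 CPM with the srsf5a morpholino, against 33.5 and 37.1 CPM in controls (-0.87 ± 0.13 SE, adjusted p = 0.0316 in edgeR). All 5 calls ended without control replicate 2, at 1.04 for hbegfa, 0.88 for egr1, 0.59 for sgk1, -0.86 for KLF11 and -0.80 for NR4A2. Without control replicate 1, those of egr1 (0.67), sgk1 (0.56) and KLF11 (-0.78) ended.

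RNAs of the MAP kinase cascade that acts on AP-1 genes showed no call in edgeR in either direction. Of 38 tested, 9 had an unadjusted p under 0.05 (6 higher and 3 lower), and DESeq2 called 1 higher. Both shares are near those over all tested genes, 20.6% and 2.86%. The median log2 fold change was 0.06, with 24 above 0 and 14 below. Both srsf5a-morpholino libraries lay above both controls in 17 and below both in 11, beside 26.1% and 26.3% of all. MAPK3, the most abundant, had 115 and 119 CPM with the srsf5a morpholino and 108 and 99.8 CPM in controls (0.17 ± 0.09 SE, adjusted p = 0.347 in edgeR). These are RNA levels, and the activity of the kinases was not measured.

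Genes known from other systems, mostly mammalian, as AP-1 targets lay mainly above 0. Of 33 tested, 8 were called higher and 0 lower in edgeR, with 17 higher and 0 lower at an unadjusted p under 0.05 and 9 higher and 0 lower in DESeq2. Over all tested genes, edgeR called 1.22% higher, 10.5% were higher at an unadjusted p under 0.05, and DESeq2 called 2.86% higher. In all, 30 lay above 0 and 3 below, the median log2 fold change was 0.37, and 22 had both srsf5a-morpholino libraries above both controls. Over all tested genes 50.1% lay above 0, and 26.1% had both srsf5a-morpholino libraries above both controls. Several of these genes were known to be higher in these data when the list was written, so the count is no independent evidence of a direction. A fibronectin gene, FN1 (ENSDARG00000006526), had 1530 and 1914 CPM with the srsf5a morpholino, against 430 and 433 CPM in controls (1.997 ± 0.13 SE, adjusted p = 0.00582 in edgeR). Its paralog ENSDARG00000019815 had 270 and 253 CPM with the srsf5a morpholino and 241 and 234 CPM in controls.

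A TIMP2 gene (ENSDARG00000075261), an inhibitor of matrix metalloproteinases, had 46.8 and 33.4 CPM with the srsf5a morpholino, against 11.6 and 9.98 CPM in controls (1.90 ± 0.19 SE, adjusted p = 0.0149 in edgeR). A further 5 calls are named after their values were seen. They were the metalloproteinase gene MMP9 (3.52 ± 0.48 SE), the autophagy receptor gene SQSTM1 (0.93 ± 0.13 SE), the keratin gene krt18a.1 (0.77 ± 0.09 SE), the laminin gene lamb3 (2.86 ± 0.52 SE) and the cytokine gene il11a. il11a had 34 and 17 reads with the srsf5a morpholino, against 0 and 1 read in controls.

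The calls of FN1 and TIMP2 held with any library left out. Without control replicate 2, those of MMP9 (3.14), SQSTM1 (0.87), krt18a.1 (0.75), lamb3 (2.76) and il11a ended. Without control replicate 1, those of krt18a.1 (0.79), lamb3 (2.92) and il11a ended. That of lamb3 (2.15) was also lost with srsf5a-morpholino replicate 1 left out. In the whole list, leaving out control replicate 2 gave 2 calls, and leaving out srsf5a-morpholino replicate 2 gave 13.

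**Figure D4:**
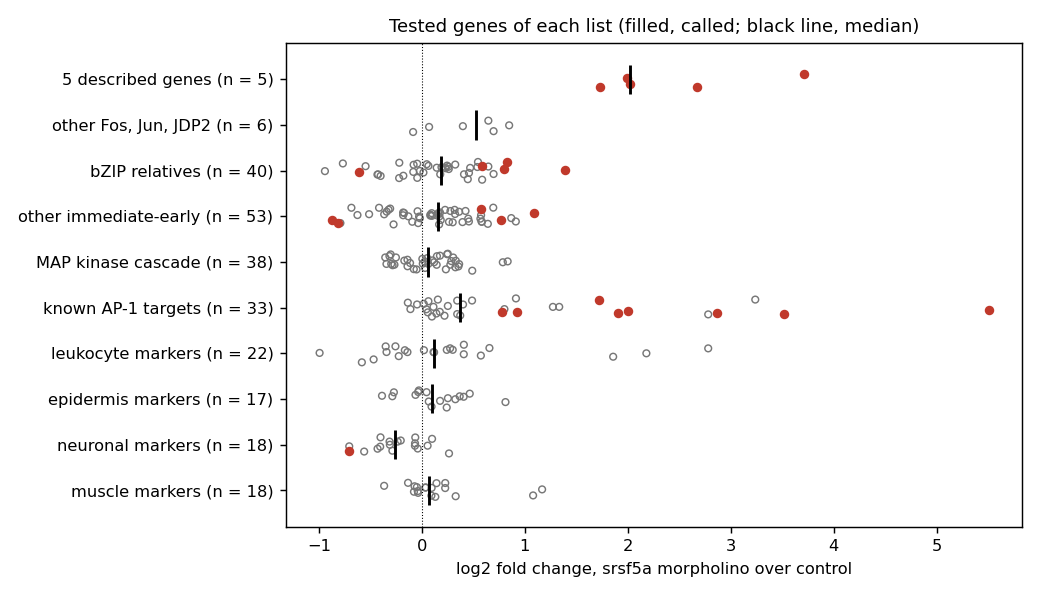
Log2 fold change (srsf5a morpholino over control) of each tested gene in 10 sets of genes, with called genes filled, other genes open and the median as a black line; the fitted value of il11a, far right, rests on controls with 0 and 1 read. The known AP-1 targets reach furthest to the right through il11a. Their median (0.37) lies below that of the other Fos, Jun and JDP2 genes (0.52). It also lies below that of the 5 described genes, which were chosen by their fold changes. The MAP kinase cascade stays near 0 (median 0.06) and the neuronal markers lie to the left (median -0.26).

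Markers of cell types that could carry these RNAs were read beside them. The summed level of the 25 matched neutrophil and macrophage markers was 229 and 211 CPM with the srsf5a morpholino, against 180 and 156 CPM in controls. None of 22 tested passed in edgeR. In 6 of the 22 both srsf5a-morpholino libraries lay above both controls and in 4 below both, near the 26.1% and 26.3% of all tested genes. An unadjusted p under 0.05 in edgeR was found for 7 (5 higher and 2 lower, beside 10.5% and 10.1% of all). DESeq2 called 3 higher, beside 2.86% of all. The most abundant, the neutrophil lysozyme gene lyz, had 64.8 and 75.5 CPM with the srsf5a morpholino and 50.4 and 44.2 CPM in controls (0.57 ± 0.12 SE, adjusted p = 0.0598 in edgeR). No name in the table matched the neutrophil gene mpx, which is a defining marker. Of the MPEG1 genes, macrophage markers, ENSDARG00000043093 had 11.4 and 5.39 CPM with the srsf5a morpholino and 2.54 and 2.15 CPM in controls (1.86 ± 0.37 SE, adjusted p = 0.0526 in edgeR), and ENSDARG00000055290 had a log2 fold change of -0.47 ± 0.17 (SE).

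Epidermal markers summed to 28776 and 30976 CPM with the srsf5a morpholino and to 32120 and 28211 CPM in controls. None of 17 tested passed in edgeR, and 8 had an unadjusted p under 0.05, beside 20.6% of all tested genes. Of these 8, 6 were higher and 2 lower, beside 10.5% and 10.1% of all. Both srsf5a-morpholino libraries lay above both controls in 7 and below both in 2, beside 26.1% and 26.3% of all. DESeq2 called 3 higher and 1 lower, beside 2.86% and 2.67% of all. Skeletal muscle markers summed to 57953 and 54949 CPM with the srsf5a morpholino and to 56509 and 51360 CPM in controls. None of 18 tested was called in edgeR. At an unadjusted p under 0.05, 3 were higher and 0 lower, beside 10.5% and 10.1% of all tested genes. DESeq2 called 2 higher, beside 2.86% of all. Neuronal markers summed to 1981 and 2033 CPM with the srsf5a morpholino and to 2701 and 2569 CPM in controls. Of 18 neuronal genes tested, 15 lay below 0. In edgeR 1 was called lower and 0 higher, beside 0.768% and 1.22% of all tested genes. At an unadjusted p under 0.05 in edgeR, 9 were lower and 0 higher, beside 10.1% and 10.5% of all. Both srsf5a-morpholino libraries lay below both controls in 10, beside 26.3% of all. DESeq2 called 4 lower, beside 2.67% of all. The gene called lower in edgeR was GAD2 (-0.71 ± 0.10 SE, adjusted p = 0.0264 in edgeR). Whether its call holds with a library left out was not examined. The part of cell makeup in the levels of the 5 genes was not tested.

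Among 11601 other named genes with at least 5 CPM in the higher group, 5 had the pattern nearest to the mean of the 5 genes over the 4 libraries. Likeness was the Euclidean distance between log2(CPM + 0.1) values centred on the control mean. With 4 libraries it reflects mainly the size of the difference between the groups. As the 5 were chosen by that difference, genes near their mean are bound to be higher with the srsf5a morpholino. The nearest was the cell cycle inhibitor cdkn1a (distance 0.368), with 14.1 and 15.8 CPM with the srsf5a morpholino and 3.34 and 2.94 CPM in controls. It was followed by a SOCS3 gene, a feedback inhibitor of cytokine signals (0.416), and by GNMT, glycine N-methyltransferase (0.445). FN1 (0.692) and irg1l, an immunoresponsive gene known from macrophages and skin of zebrafish (0.699), came after them. Both cdkn1a and the SOCS3 gene (3.74 and 4.12 CPM in controls) pass the 5 CPM filter only through the srsf5a-morpholino group. Of the 5 genes themselves, JUNB lay nearest to their mean (0.331), then FOSL2 (0.597), FOS (0.945), ATF3 (0.967) and FOSL1 (1.74). FOSL2 lay further from that mean than cdkn1a, SOCS3 and GNMT. FOS, ATF3 and FOSL1 lay further from it than all 5 nearest genes, although each is part of the mean.

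**Figure D5:**
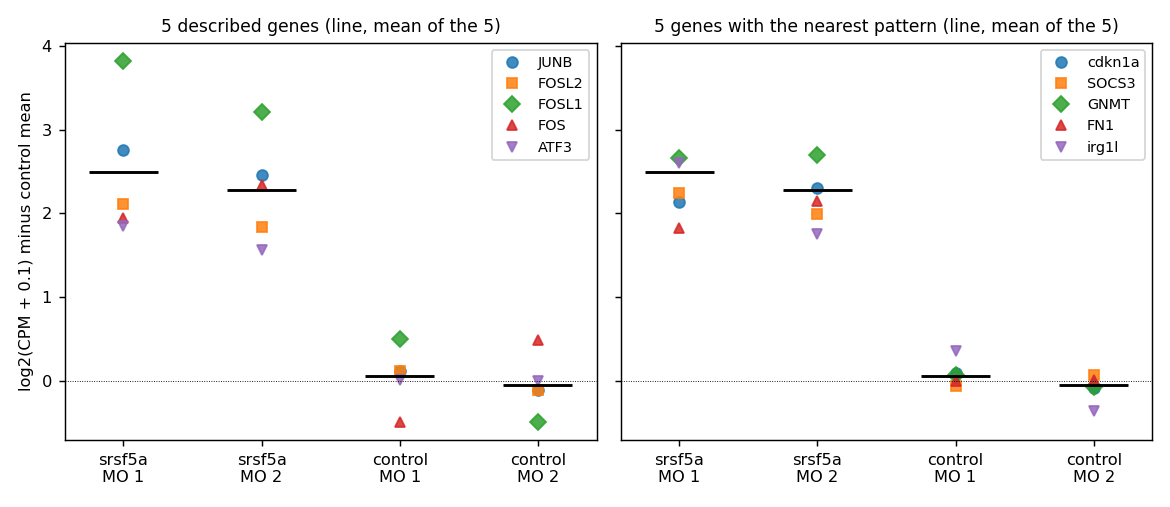
Log2(CPM + 0.1) minus the control mean in each library for the 5 described genes (left panel) and the 5 other genes with the nearest pattern (right panel); black lines are the mean of the 5 described genes. That mean was 2.50 and 2.28 in srsf5a-morpholino libraries 1 and 2 and lay within 0.05 of 0 in controls, where FOS and FOSL1 stray in opposite directions.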

How the data were processed

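RNA of 4 whole-embryo libraries was compared, 2 with the srsf5a morpholino and 2 with the control morpholino. The submitters' processing notes name the Zv9 genome build with Picard, DESeq2, HTSeq and TopHat. The annotation release is not given in the sources used here, nor are tool versions and the strand setting. Each library's deposited file holds raw read counts per Ensembl gene. The authors' deposited table holds a signal column (mean normalized count), log2 fold changes, their errors, a score column (Wald statistic) and p-values; only its log2 values were used. Summary totals stayed out of library sizes: 53.0% to 57.1% of listed reads lay in genes, and 29.0% to 34.2% had several alignments, which lowers genes with close copies.

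Counts were tested with edgeR 4.0.16 (R 4.3.3): scaling factors of 0.984 to 1.01, filterByExpr (minimum count 10, minimum total 15), the quasi-likelihood test with the group as the only term, and adjustment over 19917 genes. A standard error is the log2 fold change divided by the root of its F statistic. DESeq2 1.42.0, other scaling and filters, a replicate block and left-out libraries were alternatives. The fit was checked on simulated counts. The spread between replicates exceeded sampling noise, with chi-square over degrees of freedom at 13.5 for the srsf5a morpholino and 8.72 for controls. A count of 0 allows up to 3 counts, or 0.0828 to 0.198 CPM.

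Members and lists were chosen with earlier results of these data known. A supplied table named 20603 of 32379 identifiers. Of 337 list symbols, 95 matched exactly, 80 apart from case, 97 by the human-style name without a paralog letter, and 65 not at all, after a false match was removed by hand. Named genes are the 5 members, every other Fos, Jun or JDP2 gene, up to 3 called genes per list and direction with the lowest p, the most abundant gene of a list without a call, and the 5 nearest patterns. A gene the rule takes is not reported here. Levels of different genes were not compared, as no transcript lengths were used. No sequences were used.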

Additional observations from a re-analysis of the deposited data

How the results depend on the processing

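Leaving out a library could not reverse the sign of the 5 genes, whose libraries separate fully by group. In all 9 alternatives their log2 fold changes kept their sign. Under other scaling, filters, DESeq2 or the block they ranged from 2.64 to 2.67 for JUNB, 1.98 to 1.996 for FOSL2, 3.64 to 3.71 for FOSL1, 2.02 to 2.10 for FOS and 1.71 to 1.73 for ATF3. Counts of calls over all genes depended on the libraries and the test. Of 395 calls (242 higher, 153 lower), leaving out 1 library gave 33 to 1410 (31 to 702 higher, 2 to 708 lower), and DESeq2 gave 956 (494 higher, 462 lower). The replicate numbers are not stated to mark shared animals or days, although the difference between replicates 1 and 2 correlated between the groups across 19917 genes (Pearson r = 0.449; genes are not independent replicates). With the replicate block the counts were 1582 (865 higher, 717 lower), and JUN was called (adjusted p = 0.0375 in edgeR). With the block, calls among listed genes were 1 higher for other Fos, Jun and JDP2 genes. They were 5 higher and 2 lower for basic leucine zipper relatives, and 8 higher and 4 lower for other immediate-early genes. The MAP kinase cascade had 2 higher and known AP-1 targets 14 higher. With DESeq2 the calls in the same lists were 1 higher, 4 higher and 2 lower, 5 higher and 2 lower, 1 higher and 9 higher. Leaving out 1 library gave 0 to 1 higher for other Fos, Jun and JDP2 genes, 1 to 6 higher and 0 to 2 lower for the relatives, 0 to 5 higher and 0 to 5 lower for immediate-early genes, 0 to 1 higher for the cascade and 2 to 13 higher for the targets. Of 22 called genes named outside the 5, 16 lost their call when control replicate 2 was left out, 9 when control replicate 1 was and 1 when srsf5a-morpholino replicate 1 was, and none did under other settings that gave an adjusted p. DESeq2 gave none for il11a and lamb3, and the filter of 1 CPM in 2 libraries left out il11a. GAD2 is not among the 22. With 1 library left out, the lone library of its group being assumed to vary like the other group, the 5 genes ranged from 2.51 to 2.81 for JUNB, 1.67 to 2.68 for FOS, 3.12 to 4.20 for FOSL1, 1.85 to 2.12 for FOSL2 and 1.58 to 1.86 for ATF3. fosaa and JUND, neither of them called, changed sign among these settings and ranged from -0.23 to 0.042 and from -0.052 to 0.18. The causes were not tested. Among the 5 genes, FOSL1 had the fewest control reads, 26 and 30.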
